A study of Mus musculus with 5 samples.

Results

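Transcripts of 10 receptor genes of the CD28 family and the wider group of immune checkpoints were compared between sorted group 3 innate lymphoid cells (ILC3) and CD4 T cells of mice. The genes were taken by name from a table of 27179 gene identifiers, and all 10 (Cd28, Ctla4, Icos, Pdcd1, Tigit, Lag3, Havcr2, Btla, Cd96 and Cd226) were found and passed the filter on low counts. The labels gave 3 ILC3 libraries, from CD45+ CD3- CD127+ cells carrying a green fluorescent RORγt reporter, and 2 libraries of CD45+CD3+CD4+ cells, all of strain C57BL/6. The cells came from 3 wild type mice without treatment named in the labels. The sources used here do not give age, the tissue of each sort or which mouse gave which library. The p-values therefore reflect library-to-library spread, part of which may be technical.

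CD28 gives T cells the second signal for activation when it binds CD80 or CD86 on an antigen-presenting cell, and CTLA-4 binds the same ligands more tightly and restrains the response. ICOS, PD-1, BTLA, TIGIT, LAG-3 and TIM-3 (encoded by Havcr2) add further costimulatory or inhibitory signals, each through its own ligands. CD226, TIGIT and CD96 share the nectin-like ligand CD155, with CD226 as the activating receptor and TIGIT as an inhibitory one. Regulatory T cells of the gut are known for high CTLA-4 and ICOS, and innate lymphoid cells carry several of these receptors without an antigen receptor of their own.

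Each group had its defining transcripts, but transcripts of other cells were also present. Library totals ran from 15123715 to 25956023 counts. Of 14 ILC3 markers, 12 were higher in ILC3 and 0 lower, with summed levels of 33750 to 38371 counts per 1000000 counts (CPM) against 914 to 1547 CPM. Of 12 T cell markers, 7 were lower in ILC3 and 0 higher (3 lower without ILC3 replicate 1), with sums of 295 to 750 CPM against 1141 and 2753 CPM. Cd5 and Cd6 were at or near 0 in ILC3, while the CD3 chains Cd3d and Cd3g were not, at 63.8 to 146 CPM and 161 to 470 CPM. In the CD4 T libraries, plasmacytoid dendritic cell markers summed to 5025 and 5989 CPM (271 to 696 in ILC3, 12 of 14 called lower) and myeloid markers to 1818 and 2873 CPM (231 to 264 in ILC3, 9 of 14 tested called lower and 1 higher). Of the plasmacytoid dendritic cell list, Ly6d was highest, at 1730 and 1807 CPM there and 87.1, 422 and 388 CPM in ILC3. Siglech, a receptor of those cells, came next, at 745 and 814 CPM there and at most 0.23 CPM in ILC3. The Paneth cell gene Defa24 was 55.4 CPM in CD4 T replicate 1 and 21982 CPM in replicate 2. The CD8 chain genes Cd8a and Cd8b1 were above Cd4 in both CD4 T libraries, with values given below. The ILC3 libraries were not free of such transcripts. Jchain, on the B and plasma cell list, measured 17875, 100425 and 82251 CPM there against 34269 and 20826 CPM in CD4 T. Receptor segment genes took up 29.75% of ILC3 replicate 2, 24.22% of replicate 3 and 6.555% of replicate 1. Their share was 16.99% for CD4 T replicate 1 and 10.23% for replicate 2. Which cells gave them was not tested. In bulk RNA, fewer cells of a type and less RNA per cell cannot be told apart, and CD4 T names the label of these libraries throughout.

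Of the 10 receptors, 1 was higher in ILC3 (Cd96), 2 were lower (Btla and Ctla4) and 7 did not pass the test. Calls are adjusted p under 0.05 in edgeR's quasi-likelihood test with Benjamini-Hochberg adjustment over the 12747 genes tested, of which 6.46% were called higher and 7.21% lower in ILC3. The groups did not overlap in 8 of the 10 receptors, 5 with ILC3 below and 3 with ILC3 above. Over all tested genes 55% did not overlap, 29.6% with ILC3 below and 25.5% with ILC3 above. The median log2 fold change of ILC3 over CD4 T was -2.36 for the 10 receptors and -0.10 for all tested genes. Without CD4 T replicate 2 the receptors' median was -1.09. With library size as the only scaling, the median of all genes was -0.60 and 20.4% of all calls were higher in ILC3, in place of 47.3%.

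**Figure D1:**
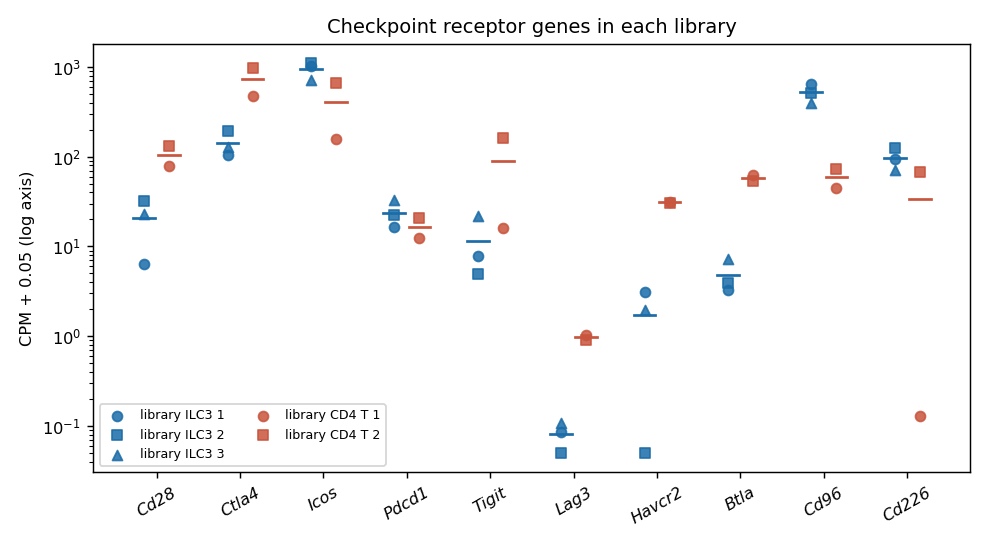
CPM plus 0.05, on a log axis, for the 10 receptor genes. Points are the 3 ILC3 and 2 CD4 T libraries and bars are group means. Points at the 0.05 level are libraries without a count. Icos and Cd96 sit highest in ILC3, Ctla4 sits highest in CD4 T, and Cd226 parts the CD4 T libraries.

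Cd96, which encodes a CD155 receptor of T and NK cells, was the receptor that rose in ILC3. Its level was 650, 515 and 401 CPM in ILC3 replicates 1 to 3, and 44.5 and 72.8 CPM in CD4 T replicates 1 and 2. Every ILC3 library lay above both CD4 T libraries, with means of 522 ± 124 CPM (SD, n = 3) and 58.6 ± 20.0 CPM (SD, n = 2). This was a log2 fold change of 3.15 (SE 0.409, quasi-likelihood adjusted p = 0.00775). It was called under all 14 alternatives, with log2 values from 2.69 to 3.57 and adjusted p up to 0.042. The gene lies on chromosome 16, from 46035652 to 46120248 (GRCm38.p6).

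Btla encodes the receptor of the TNF receptor family member HVEM and damps B and T cell activation. It measured 3.21, 3.91 and 7.13 CPM in ILC3, and 62.9 and 53.4 CPM in CD4 T. All ILC3 libraries were below both CD4 T libraries, and the CD4 T libraries were close to each other. The difference was -3.62 in log2 (SE 0.451, quasi-likelihood adjusted p = 0.00696), from 4.75 ± 2.09 CPM (SD, n = 3) in ILC3 against 58.2 ± 6.75 CPM (SD, n = 2). It was called under all 14 alternatives, with log2 values from -4.15 to -3.41. The gene lies on chromosome 16, from 45223705 to 45252895. BTLA is known from B cells, T cells and dendritic cells. Of 10 tested B and plasma cell markers 0 were called by edgeR. At an unadjusted quasi-likelihood p under 0.05 there were 2, by DESeq2 2 and by limma-voom 1. All of these were higher in ILC3, opposite to Btla, while scaling by library size alone gave 1 lower. Jchain, the joining chain of secreted antibodies, was the highest of them, at 17875, 100425 and 82251 CPM in ILC3 and 34269 and 20826 CPM in CD4 T. The plasmacytoid dendritic cell and myeloid markers moved with Btla across the groups, and their part in the difference was not tested.

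Ctla4, the inhibitory counterpart of Cd28, was abundant in both groups and lower in ILC3. It measured 103, 191 and 128 CPM in ILC3 and 470 and 980 CPM in CD4 T. The lowest CD4 T library was above the highest ILC3 library, although the CD4 T libraries differed 2.08-fold between themselves. The log2 fold change was -2.36 (SE 0.432, quasi-likelihood adjusted p = 0.0195), from means of 141 ± 45.4 CPM (SD, n = 3) and 725 ± 360 CPM (SD, n = 2). The call was lost without ILC3 replicate 1 (quasi-likelihood adjusted p = 0.072) or replicate 3 (0.0696). Without CD4 T replicate 2 the log2 fold change was -1.73 (quasi-likelihood adjusted p = 0.0329). The gene lies on chromosome 1, from 60909025 to 60915832. Foxp3, the regulatory T cell factor, moved with it, at 63.0 and 65.7 CPM in CD4 T and 1 count over the 3 ILC3 libraries. Foxp3 included, 5 of 12 tested regulatory T cell markers moved with it, with Il2ra going the other way, and their part in the difference was not tested.

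The promoter windows of these 3 called genes are shown because they differed between the groups. RefSeq windows (GRCm38.p6, 250 bases before to 50 after a transcript start) were matched for 6 of the 10 genes. Each is written 5′ to 3′ on the strand of the gene, which is plus for Ctla4 and Btla and minus for Cd96. Capitals mark matches, on either strand, to the NFAT core GGAAA, the RUNX motif TGTGGT, the AP-1 motif TGANTCA, the nuclear receptor motif AGGTCA or the forkhead motif TGTTTAC.
Cd96, chr16:46120199-46120498: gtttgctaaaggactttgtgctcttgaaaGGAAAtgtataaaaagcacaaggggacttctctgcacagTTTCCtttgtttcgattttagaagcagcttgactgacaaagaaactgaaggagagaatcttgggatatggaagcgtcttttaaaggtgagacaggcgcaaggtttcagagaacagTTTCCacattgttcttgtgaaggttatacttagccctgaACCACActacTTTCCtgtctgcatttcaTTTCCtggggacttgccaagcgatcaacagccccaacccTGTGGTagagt
Btla, chr16:45224087-45224386: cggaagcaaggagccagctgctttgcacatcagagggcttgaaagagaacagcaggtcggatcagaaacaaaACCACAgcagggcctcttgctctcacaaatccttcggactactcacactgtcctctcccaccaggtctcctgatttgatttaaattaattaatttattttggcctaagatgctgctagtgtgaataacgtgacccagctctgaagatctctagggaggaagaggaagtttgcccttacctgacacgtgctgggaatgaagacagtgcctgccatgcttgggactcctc
Ctla4, chr1:60908775-60909074: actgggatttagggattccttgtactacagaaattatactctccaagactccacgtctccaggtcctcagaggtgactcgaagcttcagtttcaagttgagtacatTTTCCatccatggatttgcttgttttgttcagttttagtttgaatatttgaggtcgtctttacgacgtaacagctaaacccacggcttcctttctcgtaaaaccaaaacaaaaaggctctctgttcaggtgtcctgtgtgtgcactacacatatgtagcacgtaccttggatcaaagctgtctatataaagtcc

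The Cd96 window held 5 matches to GGAAA and 2 to TGTGGT. The Btla window held 1 match to TGTGGT, and the Ctla4 window held 1 to GGAAA. None of these matches overlapped another motif. GGAAA was present in 61.3% of all 32851 windows of this length and TGTGGT in 16.8%. No window of the 3 genes held AGGTCA (16.3% of all windows), TGANTCA (7.81%) or TGTTTAC (3.65%). A match is a description of the letters and no site of binding, and the absence of one says only that the letters are not in the window. Among the other 3 matched genes, AGGTCA occurred in the Pdcd1 and Havcr2 windows and TGANTCA in the Havcr2 window.

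**Figure D2:**
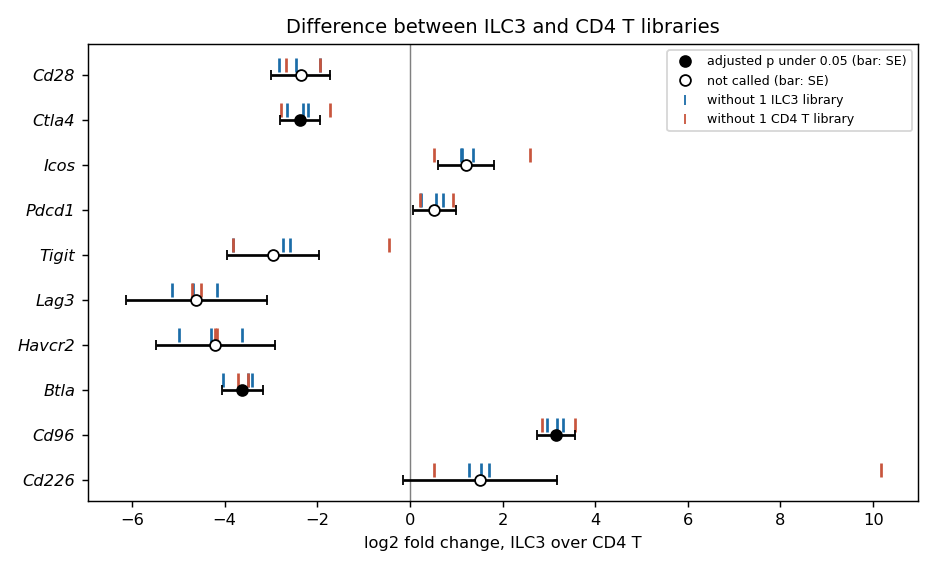
Log2 fold change of ILC3 over CD4 T for each receptor gene. Circles are the fit over all libraries with bars for 1 SE, filled where the adjusted p is under 0.05, and ticks are fits without 1 library. Btla and Cd96 stay near their values, whereas Cd226 moves to 10.2 without CD4 T replicate 2.

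Cd28 and Icos are the paralogues that flank Ctla4. In the annotation, Cd28 (60746388 to 60773359), Ctla4 and Icos (60960773 to 61000322) follow each other on the plus strand of chromosome 1, 135.7 kb and 44.9 kb apart, with no other protein-coding gene between them. Despite this neighbourhood, the 3 fitted log2 fold changes did not share a sign: they were negative for Cd28 and Ctla4 and positive for Icos. Only that of Ctla4 passed the test.

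Cd28 measured 6.39, 32.2 and 23.1 CPM in ILC3, and 79.0 and 132 CPM in CD4 T. The groups did not overlap, and ILC3 replicate 1 was lowest by a wide margin. The log2 fold change of -2.36 (SE 0.641) was as large as that of Ctla4 but did not pass (quasi-likelihood adjusted p = 0.0553). It passed with library size alone (quasi-likelihood adjusted p = 0.0167), without the filter on low counts (0.00319), in the DESeq2 Wald test (adjusted p = 0.00334) and in limma-voom (adjusted p = 0.0201). It did not pass without any 1 of the libraries, with quasi-likelihood adjusted p from 0.0657 to 0.156.

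Icos, the inducible costimulator, was the most abundant receptor of the ILC3 libraries. It measured 1026, 1094 and 718 CPM in ILC3 and 158 and 661 CPM in CD4 T. All ILC3 libraries were above both CD4 T libraries, but CD4 T replicate 2 came close to the lowest ILC3 library. A log2 fold change of 1.21 (SE 0.608) did not pass (quasi-likelihood adjusted p = 0.217). It was 2.59 and passed once CD4 T replicate 2 was left out (quasi-likelihood adjusted p = 0.0115), and 0.52 with replicate 1 left out (0.381).

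Pdcd1, which encodes PD-1, was low in both groups. It measured 16.3, 22.3 and 32.4 CPM in ILC3 and 12.4 and 20.5 CPM in CD4 T, and the groups overlapped. The log2 fold change was 0.53 (SE 0.461, quasi-likelihood adjusted p = 0.476), and with library size alone it was -0.009 (0.991). The gene lies on chromosome 1, from 94038305 to 94052553, 33038 kb beyond Icos.

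Tigit and Cd226, the inhibitory and activating CD155 receptors, parted the CD4 T libraries. Tigit was 7.69, 4.93 and 21.98 CPM in ILC3, and 15.97 and 163 CPM in CD4 T, so the groups overlapped. Its log2 fold change was -2.96 (SE 0.998, quasi-likelihood adjusted p = 0.091), and -0.46 without CD4 T replicate 2 (0.746). Cd226 was 93.1, 126 and 70.8 CPM in ILC3, and 0.079 CPM (2 counts) and 67.5 CPM (1247 counts) in CD4 T. CD4 T replicate 2 was just below the lowest ILC3 library, while replicate 1 held almost no Cd226. The ratio of replicate 2 to replicate 1 was 852 with an exact 95% counting interval of 235 to 7044, which covers counting error only. The log2 fold change of Cd226 was 1.52 (SE 1.66, quasi-likelihood adjusted p = 0.575). Leaving out CD4 T replicate 2 gave 10.2 (quasi-likelihood adjusted p = 0.00392), and leaving out replicate 1 gave 0.53 (0.494). The ILC3 libraries differed 1.79-fold in Cd226 and 4.46-fold in Tigit. Tigit lies on chromosome 16, from 43626137 to 43665125, and Cd226 on chromosome 18, from 89176954 to 89272232.

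The CD4 T libraries differed from each other in some receptors more than in others. Icos was 4.17-fold and Tigit 10.2-fold higher in replicate 2 than in replicate 1, and Cd28, Pdcd1 and Cd96 were 1.64-fold to 1.66-fold higher. Btla, Havcr2 and Lag3 differed by less, at 0.848-fold, 0.96-fold and 0.874-fold. Beside them, markers over 2-fold higher in replicate 2 were 4 of 12 T cell, 4 of 6 CD8 and gamma-delta T cell, 4 of 7 NK cell and ILC1, 6 of 14 ILC3 and 4 of 5 tested epithelial markers. The same held for 4 of 12 regulatory T cell, 1 of 6 ILC2, 2 of 10 B and plasma cell, 4 of 14 myeloid, 0 of 4 stromal and endothelial and 0 of 14 plasmacytoid dendritic cell markers, and for 19.9% of all tested genes. Over 2-fold lower in replicate 2 were 5 of 14 myeloid, 4 of 14 plasmacytoid dendritic cell, 2 of 12 regulatory T cell and 1 of 4 stromal and endothelial markers. No marker of the other lists was, against 2100 of all 12747 tested genes. Il22, the cytokine made by ILC3, was 13.3 CPM in CD4 T replicate 1 and 141 CPM in replicate 2, and 19468 to 21493 CPM in ILC3. Of the T cell markers, the adaptor gene Trat1 was 2.58 and 85.2 CPM and the CD3 chain gene Cd3g 280 and 1310 CPM. Their part in the receptor values was not tested.

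Havcr2 and Lag3, known from exhausted T cells and also from myeloid cells and plasmacytoid dendritic cells respectively, had the lowest receptor means in ILC3. In CD4 T, Lag3 was lowest, and Havcr2 was above Pdcd1 in both libraries. Havcr2 was 3.03, 0 and 1.93 CPM in ILC3, and 31.5 and 30.2 CPM in CD4 T. ILC3 replicate 2 had no count, which allows up to 0.192 CPM (3 counts), and the groups did not overlap. The log2 fold change of -4.20 (SE 1.28) did not pass (quasi-likelihood adjusted p = 0.0707). It passed without ILC3 replicate 2 at -3.62 (quasi-likelihood adjusted p = 0.0336), without the filter (0.00431), in the DESeq2 Wald test (adjusted p = 0.00551) and in limma-voom (adjusted p = 0.0306). Lag3 had 1, 0 and 1 counts in ILC3, and 25 and 16 counts in CD4 T, which is 0.991 and 0.866 CPM. Per depth, Lag3 was 28.4-fold lower in ILC3 with an exact 95% counting interval of 7.36 to 242, and did not pass the test (quasi-likelihood adjusted p = 0.0859). Havcr2 lies on chromosome 11, from 46454931 to 46481255, and Lag3 on chromosome 6, from 124904359 to 124912434. No exon of the 10 genes overlapped an exon of another gene in GENCODE M21.

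Per kilobase of exon, the receptors could be ordered within a group. Levels here are CPM per kilobase of the merged exons of the GENCODE basic set, from 919 bases for Tigit to 4494 for Cd226. In ILC3 the order was Icos at 276 ± 58.3 (SD, n = 3), Cd96 at 239 ± 56.9, Ctla4 at 72.8 ± 23.5 and Cd226 at 21.5 ± 6.23. Then came Tigit, Pdcd1, Cd28, Btla, Havcr2 and Lag3, from 12.5 down to 0.0157. The library ranges of neighbours overlapped except between Cd96 and Ctla4, Ctla4 and Cd226, and Pdcd1 and Cd28. In CD4 T the order began with Ctla4 at 375 ± 186 (SD, n = 2), Icos at 119 ± 104, Tigit at 97.4 ± 113 and Cd96 at 26.8 ± 9.16. Then came Cd28, Btla, Havcr2, Pdcd1, Cd226 and Lag3, from 24.2 down to 0.464. There, neighbours were apart between Ctla4 and Icos, Btla and Havcr2, and Havcr2 and Pdcd1.

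**Figure D3:**
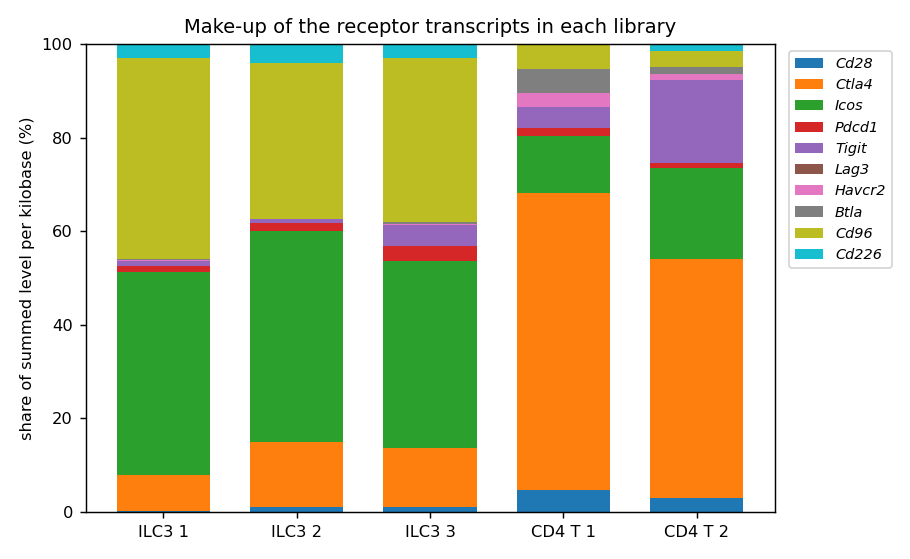
Share of each receptor gene in the summed level per kilobase of the 10 genes, in percent, for each library. Icos and Cd96 make up 75.0% to 86.3% in the ILC3 libraries, and Ctla4 makes up 63.5% and 51.0% in the CD4 T libraries.

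As a share of the summed level per kilobase of all 10 receptors, Icos and Cd96 together made up 86.3%, 78.4% and 75.0% in the ILC3 libraries, against 17.4% and 22.7% in those of CD4 T. Ctla4 alone made up 63.5% and 51.0% in CD4 T and 7.74% to 14.0% in ILC3. These shares hold within a library whatever its scaling, and each group was apart from the other in both. Lag3 made up at most 0.129% in any library.

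Ratios of receptors that bind the same ligands, and of the paralogues Icos and Cd28, were also read within each library, as levels per kilobase. Ctla4 stood above Cd28 in all 5 libraries, at 36.4, 13.4 and 12.4 times in ILC3 and 13.4 and 16.7 times in CD4 T. The groups overlapped in this ratio, and ILC3 replicate 1 had the highest value. The log2 difference was 0.28 (exact two-sided permutation p = 1, adjusted p = 1 over the 5 ratios). Icos exceeded Cd28 by 204, 43.1 and 39.4 times in ILC3 and by 2.54 and 6.37 times in CD4 T, with no overlap. Cd96 exceeded Tigit by 35.6, 43.9 and 7.69 times in ILC3, and stood at 1.17 and 0.188 times Tigit in CD4 T, again with no overlap. Tigit stood at 0.404, 0.191 and 1.52 times Cd226 in ILC3 and at 11.8 times in CD4 T replicate 2. Against the 2 Cd226 counts of CD4 T replicate 1, neither the Tigit nor the Cd96 ratio has a usable size. For these 3 ratios without overlap the exact two-sided permutation p = 0.2 (adjusted p = 0.333), the smallest that 3 against 2 libraries allow. The ratio of Cd96 to Cd226 overlapped (exact permutation p = 0.8, adjusted p = 1), at 14.4, 8.38 and 11.7 in ILC3 and 2.22 in CD4 T replicate 2.

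**Figure D4:**
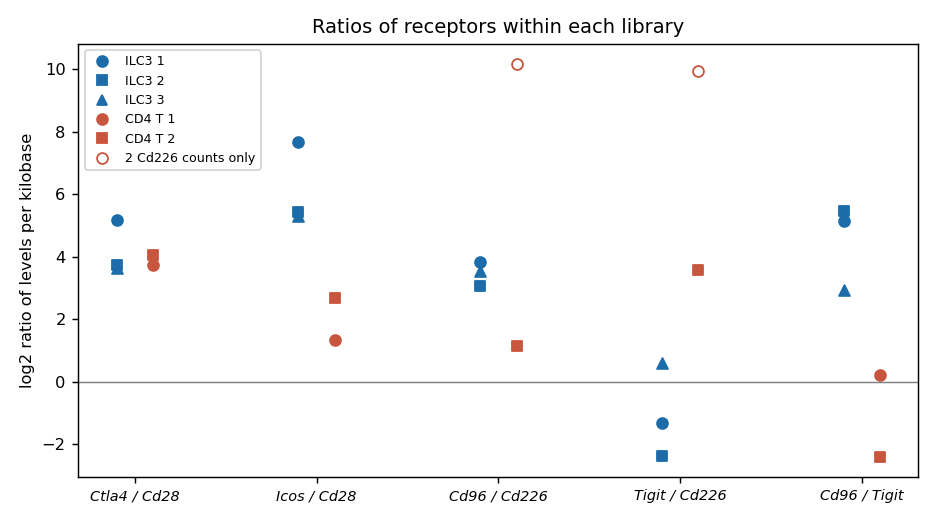
Log2 ratio of levels per kilobase for 5 pairs of receptors, 1 point per library, with 0 as equal levels. The open circles rest on 2 Cd226 counts. Ctla4 to Cd28 overlaps between the groups, while Icos to Cd28 lies at 5.30 to 7.67 in ILC3 and at 1.34 and 2.67 in CD4 T.

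Genes whose pattern over the 5 libraries was closest to a called receptor were found by the root mean square difference of centred log2 CPM. Closest to Cd96 were Il2ra (0.15), the adaptor gene Gab3 (0.158) and Lingo4 (0.161). Il2ra, the alpha chain of the IL-2 receptor, was 490, 380 and 365 CPM in ILC3 and 31.6 and 65.8 CPM in CD4 T. Closest to Btla were the C-type lectin gene Clec4a1 (0.172), the cytokine gene Il1b (0.18) and Treml2 (0.199). Clec4a1 was 2.09, 2.69 and 4.56 CPM in ILC3 and 38.9 and 27.3 CPM in CD4 T. Treml2 was 0, 0 and 0.701 CPM in ILC3 and 10.1 and 7.69 CPM in CD4 T, and was not called (quasi-likelihood adjusted p = 0.0995). Its closeness leans on the 0.5 CPM added before taking logs, since its fitted log2 fold change was -5.25. These are descriptions over 5 libraries.

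Ligands of the receptors were mostly lower in ILC3 or did not pass the test. Of 16 genes, 14 were tested, 4 were lower, 1 was higher and 9 were not called, with a median log2 fold change of -1.51 (-0.10 over all tested genes). For the receptors and for each of the 4 lists described here, the median was the same with low-count genes set at counting ratios. Low-count genes are those with 0 to 3 counts in a group, and with 0 counts the ratio was a lower bound. Cd86, the ligand of CD28 and CTLA-4 on antigen-presenting cells, was 2.42, 12.3 and 4.97 CPM in ILC3 and 196 and 143 CPM in CD4 T. Its log2 fold change was -4.70 (SE 0.683, quasi-likelihood adjusted p = 0.0108), and -5.52 without ILC3 replicate 2 and -5.32 with library size alone. The myeloid markers moved the same way, and their part was not tested. Cd80, which shares both receptors, was 2.05 to 4.38 CPM in ILC3 and 3.77 and 11.6 CPM in CD4 T and did not pass (log2 -1.21, quasi-likelihood adjusted p = 0.349). Lgals3, a galectin that binds LAG-3 among other glycoproteins, was lower by a log2 fold change of -2.12 (quasi-likelihood adjusted p = 0.0126). Ceacam1, a ligand of TIM-3, had 1 count over ILC3 and was 11.8 and 4.39 CPM in CD4 T (ratio 524, counting interval 93.5 to 20800, quasi-likelihood adjusted p = 0.0198). Nectin3, whose product binds nectin-family receptors, was the member that was higher, at 1.30 to 3.14 CPM in ILC3 with no count in CD4 T, at least 31.3-fold higher (quasi-likelihood adjusted p = 0.047). Ceacam1 and Nectin3 lost their calls without ILC3 replicate 1 (quasi-likelihood adjusted p = 0.0628 and 0.0858), 2 (0.0542 and 0.0972) or 3 (0.0503 and 0.0828) and without CD4 T replicate 1 (0.133 and 0.135), and Nectin3 without CD4 T replicate 2 (0.0749). Without ILC3 replicate 1, 2 or 3 or CD4 T replicate 1, 2 ligands were lower and 0 higher.

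Other costimulatory and inhibitory receptors held 12 lower and 2 higher genes among 27 tested, and 13 were not called (median log2 -2.62). Cd5 and Cd6, scavenger-type inhibitory coreceptors of T cells, were nearly absent from ILC3. Cd5 had 1 count there and 54.9 and 78.1 CPM in CD4 T (ratio 3910, counting interval 701 to 154000, quasi-likelihood adjusted p = 0.00129). Cd6 had none, and was 36.7 and 56.9 CPM in CD4 T, at least 911-fold lower in ILC3 (quasi-likelihood adjusted p = 0.00369). Timd4, a TIM family receptor known from macrophages, had 1 count in ILC3 and was 13.0 and 19.7 CPM in CD4 T (ratio 956, counting interval 171 to 37800, quasi-likelihood adjusted p = 0.00515). Cd84, a SLAM family receptor, was higher, at 154, 153 and 104 CPM in ILC3 and 46.4 and 45.0 CPM in CD4 T (log2 1.58, quasi-likelihood adjusted p = 0.0245). Its call was lost with library size alone (quasi-likelihood adjusted p = 0.107), without ILC3 replicate 1 (0.08) or 2 (0.0838) and without CD4 T replicate 1 (0.0728). Of these genes, 7 were lower without ILC3 replicate 2 or CD4 T replicate 1, and 9 to 10 without any other 1 library. None was higher without ILC3 replicate 1 or 2 or CD4 T replicate 1, 1 without ILC3 replicate 3, and 4 without CD4 T replicate 2.

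Signalling and trafficking partners had 11 lower, 2 higher and 19 uncalled genes among 32 tested (median log2 -0.87). Fyn, a Src family kinase, was 28.1, 35.2 and 33.2 CPM in ILC3 and 268 and 224 CPM in CD4 T (log2 -2.93, SE 0.272, quasi-likelihood adjusted p = 0.00276). Inpp5d, the inositol phosphatase SHIP1, had a log2 fold change of -2.84 (quasi-likelihood adjusted p = 0.00991), and Vav1, an exchange factor downstream of CD28, one of -2.83 (0.0122). Without CD4 T replicate 1 those of Inpp5d and Vav1 were -2.19 and -2.04, and the Vav1 call was lost without ILC3 replicate 1 (quasi-likelihood adjusted p = 0.0531). Pik3r1, a regulatory subunit of the PI3 kinase that CD28 and ICOS recruit, was higher, at 251, 157 and 163 CPM in ILC3 and 45.1 and 59.0 CPM in CD4 T (log2 1.87, quasi-likelihood adjusted p = 0.021). Its call was lost with library size alone (quasi-likelihood adjusted p = 0.0814) and without ILC3 replicate 1 (0.0628), 2 (0.0529) or 3 (0.0512) or CD4 T replicate 1 (0.08). Of the partners, 3, 5 and 7 were lower without ILC3 replicate 1, 2 and 3, and 6 and 10 without CD4 T replicate 1 and 2, with 3 higher in the last of these and 0 in the others.

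Transcription factors and RNA-binding proteins that regulate these receptors had 3 lower, 1 higher and 18 uncalled genes among 22 tested (median log2 -0.54). Beside Foxp3 (ratio 3880, counting interval 695 to 153000, quasi-likelihood adjusted p = 0.000753), Irf4 was 3.14, 5.77 and 10.9 CPM in ILC3 and 66.4 and 51.9 CPM in CD4 T (log2 -3.17, quasi-likelihood adjusted p = 0.0167). Prdm1, which encodes Blimp-1, had a log2 fold change of -2.19 (quasi-likelihood adjusted p = 0.0457). Id2, an inhibitor of E proteins that innate lymphoid cells need, was 4233, 3673 and 3763 CPM in ILC3 and 630 and 1239 CPM in CD4 T (log2 2.06, quasi-likelihood adjusted p = 0.0235). The exhaustion-associated factor Tox did not pass, at 49.0 to 56.6 CPM in ILC3 and 41.7 and 47.4 CPM in CD4 T (quasi-likelihood adjusted p = 0.582). Irf4 lost its call without ILC3 replicate 2 (quasi-likelihood adjusted p = 0.0654) and CD4 T replicate 1 (0.0743). Prdm1 and Id2 lost theirs without ILC3 replicate 1 (quasi-likelihood adjusted p = 0.0791 and 0.0763), 2 (0.0753 and 0.0819) or 3 (0.0937 and 0.0725), Prdm1 also without CD4 T replicate 1 (0.213) and Id2 with library size alone (0.0582). Without CD4 T replicate 2, 5 regulators were lower and 2 higher, and with any other 1 library left out 1 or 2 were lower and 0 or 1 higher.

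**Figure D5:**
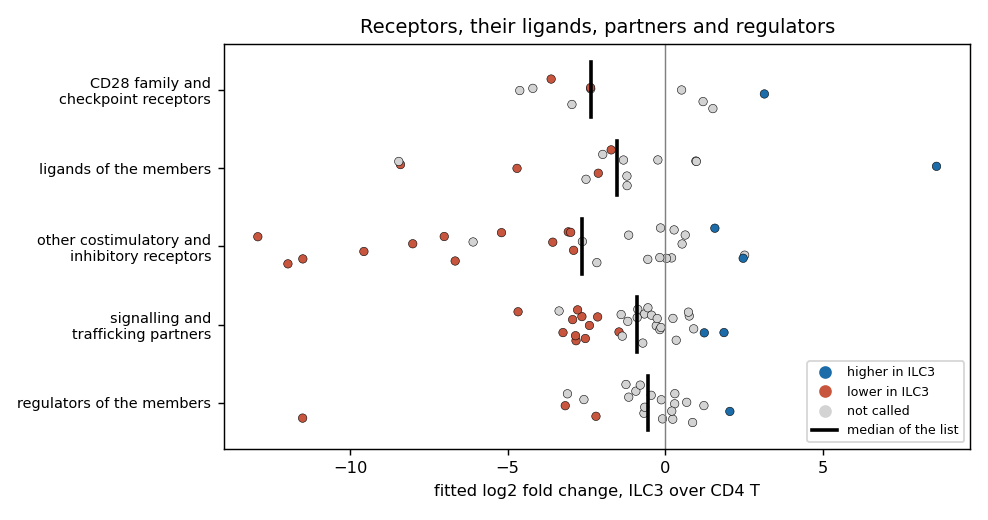
Fitted log2 fold change of ILC3 over CD4 T for the tested genes of 5 lists, with colour for the call and a bar for the median of each list. Values further from 0 than that of Tnfrsf4 (-8.01, with 75, 87 and 40 counts in ILC3) rest on groups with few or no counts. The receptors' median is -2.36, and the partners' and regulators' medians are -0.87 and -0.54.

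Of the remaining marker lists, CD8 and gamma-delta T cell markers had 3 of 6 tested genes lower and 1 higher in ILC3. NK cell and ILC1 markers had 1 lower and 1 higher of 7, and ILC2 markers 3 lower and 0 higher of 6. Epithelial markers had 2 lower and 0 higher of 5, and stromal and endothelial markers 0 lower and 1 higher of 4. The epithelial calls were all lost without ILC3 replicate 1, 2 or 3 or CD4 T replicate 2, and the stromal and endothelial one without ILC3 replicate 1, 2 or 3 or CD4 T replicate 1. Without CD4 T replicate 2, 3 CD8 and gamma-delta T cell markers and 4 NK cell and ILC1 markers were higher. Without CD4 T replicate 1, 2 of each of these lists were higher and 2 lower. The CD8 and gamma-delta T cell marker called higher was Trdc, the constant region of the T cell receptor delta chain. It was 475, 353 and 193 CPM in ILC3 and 0.832 and 2.27 CPM in CD4 T (quasi-likelihood adjusted p = 0.00343). Trgc1, a constant region of the gamma chain, was 362, 466 and 298 CPM in ILC3 and 0.277 and 23.4 CPM in CD4 T. It was not called (quasi-likelihood adjusted p = 0.0774). The CD8 chain genes Cd8b1 and Cd8a were 336 and 433 CPM and 245 and 189 CPM in CD4 T, where Cd4 was 142 and 90.1 CPM.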

How the data were processed

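The authors deposited 1 table of raw read counts per NCBI gene identifier, whole numbers with no normalization, with a column for each of the 3 ILC3 and 2 CD4 T libraries. Per the labels' protocols, a SMARTer Ultra Low Input kit amplified the cDNA of few cells, without molecular identifiers, so intervals and floors of 3 counts cover counting error only. The build mm10, STAR 2.3.0 and CASAVA 1.8.2 are named per the submitters' processing notes. How reads were counted, and with which strand setting, is not given in the sources used here.

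Identifiers were matched to RefSeq (GRCm38.p6) for 25275 of 27179 genes. The fit used edgeR 4.0.16 (R 4.3.3) with filterByExpr, TMM factors, the quasi-likelihood F test, no covariate and 3 residual degrees of freedom. The SE is the log2 fold change divided by the square root of F, and CPM is on the TMM scale. Alternatives were upper quartile factors, size factors of DESeq2, library size alone, TMM without receptor segment genes, no filter, a minimum of 1 CPM in 2 libraries, a Wald test in DESeq2 1.42.0, voom in limma 3.58.1, leaving out each library, and a replicate block. Scripts were tested on simulated data of 12747 genes. Of 100 genes changed 4-fold, 10 were called in the right direction, and of 100 changed 16-fold, 86 were, with 12 false calls. A gene that did not pass can therefore still differ between the groups. The changed genes were drawn from those with a mean of at least 100 counts per library, and all others were left unchanged. In the data 13.7% of tested genes were called, which sets another cut-off. The simulated rates thus do not give the power of the fit here, and they do not cover genes with few counts. Chi-square per degree of freedom between libraries was 234 or more, so none was the same library sequenced again. Whether any libraries came from the same mouse or cells cannot be told from this value.

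The 10 receptors, 4 lists of ligands, other receptors, partners and regulators, and 11 marker lists were chosen with earlier results of these data known. From each of the 4 lists the text names up to 4 called genes with the smallest p, both directions included. From marker lists it names genes among the 2 with the highest mean CPM in a group. Cd80, Tox, Trat1, Trdc, Cd8a and Cd4 were added after their values were seen. A withheld item is not reported here.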

Additional observations from a re-analysis of the deposited data

How the results depend on the processing

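Over 14 alternatives for each of the 10 receptors, 124 of 140 log2 fold changes kept their direction and their side of the threshold, 12 newly passed, 3 no longer passed (Ctla4) and 1 reversed (Pdcd1, -0.009 with library size alone). Cd96 and Btla were called in every alternative. The number of receptors lower in ILC3 was 2. It was 5 without a filter and in DESeq2, 4 in limma-voom, and 1 to 3 with 1 library left out, and the number higher was 1 to 3 there. Over all genes, 824 were higher and 919 lower. Scaling by library size alone gave 384 higher and 1502 lower, with no filter 1250 were higher, with DESeq2 1914 and 1858, and with limma-voom 1317 and 1402. With 1 library left out, 269 to 1712 were higher and 306 to 960 lower. A group left with 1 library is assumed to vary like the other. The causes were not tested.

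The labels give both groups replicate numbers 1 and 2. Deviations from the group means correlated at -0.039 and -0.041 for the same numbers across genes. The deviations of the 2 CD4 T libraries mirror each other, so these values cannot decide whether the numbers pair libraries. With the replicate block, 1 receptor was higher and 1 lower (Btla), and 215 genes were higher and 305 lower. Ctla4 had a quasi-likelihood adjusted p = 0.0783. ILC3 replicate 3 has no CD4 T library of the same number, so in this fit it does not inform the contrast. Fewer residual degrees of freedom are left than in the main fit. Whether the lost calls come from this was not tested. The block left 3 T cell markers, 1 ligand, 8 other receptors, 3 partners and 2 regulators lower, and 7 ILC3 markers higher. Lag3 rests on 2 counts in ILC3, so depth limits its ratio.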
